A study of Homo sapiens with 6 samples.

Results

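The genes described here are the human ZNF genes that were well expressed in LX-2 cells, an immortalised hepatic stellate cell line, and their response to the protein IGFBP-7. They were selected on the measured level: protein-coding genes whose symbol is ZNF, a number and at most 1 letter, averaging 500 normalized counts or more over all 6 libraries. Of 16569 genes in the deposited table, 131 met the rule. The table holds 415 protein-coding ZNF genes. Another 258 of them had a mean of 10 to under 500 and 26 had a mean under 10. Just outside the rule lay ZNF200, ZNF211 and ZNF319 with means of 498 to 499, and just inside it lay ZNF449, ZNF597 and ZNF438 with means of 501, 505 and 507. For 6 members, ZNF438, ZNF449, ZNF597, ZNF608, ZNF765 and ZNF845, the mean of 1 group was under 500, so they met the rule through the group in which they were higher, and counts over the members are given as a description.

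Both groups were cultured in 2% fetal bovine serum medium and then serum-starved for 18 h. They then received IGFBP-7 at 100 ng/mL, or phosphate-buffered saline (PBS) as the control, for 24 h. Each group had 3 poly(A) RNA libraries, but whether these are separate cultures is not stated in the labels. A p-value here reflects spread among libraries that may be technical.

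C2H2 zinc finger proteins are the largest class of human transcription factors. Each finger is a short fold in which a pair of cysteines and a pair of histidines hold a zinc ion, and tandem fingers read DNA. Many also carry a KRAB domain, which recruits the corepressor TRIM28 and heterochromatin enzymes and is best known for silencing transposable elements. ZNF proteins without KRAB act through other partners, such as CtBP, NuRD or histone methyltransferase complexes. Stellate cells are the collagen-producing cells of the injured liver.

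The fingers were read from GENCODE release 29 coding sequences (GRCh38), in which all 131 genes were matched. The first finger found is printed for the 3 genes with the largest rises (ZNF608, ZNF618, ZNF827), for ZNF219 and ZNF217, which were among the largest falls, and for ZNF92, the KRAB gene with the largest rise. They show the shared signature and how much the bases between differ. Capitals mark the codons of the paired cysteines and histidines. Each lies within 1 coding exon, at chr5:124648650-124648721 (minus strand), chr9:114002007-114002069 (plus), chr4:145892321-145892383 (minus), chr14:21093060-21093122 (minus), chr20:53582563-53582628 (minus) and chr7:65398721-65398783 (plus), in the order of the lines.
ZNF608: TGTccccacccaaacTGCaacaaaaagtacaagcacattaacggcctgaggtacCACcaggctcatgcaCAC
ZNF618: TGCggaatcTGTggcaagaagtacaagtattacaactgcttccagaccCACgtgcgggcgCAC
ZNF827: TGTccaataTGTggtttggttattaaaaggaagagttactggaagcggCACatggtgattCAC
ZNF219: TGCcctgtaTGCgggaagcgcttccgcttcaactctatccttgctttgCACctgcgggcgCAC
ZNF217: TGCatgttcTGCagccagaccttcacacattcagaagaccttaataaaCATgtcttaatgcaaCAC
ZNF92: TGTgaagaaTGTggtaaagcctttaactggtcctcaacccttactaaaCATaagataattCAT

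The KRAB domain was read from the same release, as at least 8 of 10 conserved positions in any coding transcript of the gene. Fingers, and a stricter KRAB pattern, were read in the longest coding sequence only. Stretches of 3 members are printed because they show what separates the KRAB class from the rest: ZNF92, ZNF468 and ZNF224. Of these, ZNF224 was missed by the stricter pattern. Capitals mark the codons at the conserved positions. They lie within coding exons at chr7:65387914-65387997 (plus), chr19:52849118-52849201 (minus) and chr19:44100813-44100896 (plus).
ZNF92: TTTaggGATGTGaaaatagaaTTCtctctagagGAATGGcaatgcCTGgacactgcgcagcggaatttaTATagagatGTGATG
ZNF468: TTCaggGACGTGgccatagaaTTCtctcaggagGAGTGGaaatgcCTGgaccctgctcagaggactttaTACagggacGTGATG
ZNF224: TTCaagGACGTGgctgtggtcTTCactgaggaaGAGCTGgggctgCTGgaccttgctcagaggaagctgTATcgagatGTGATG

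By these features 68 members had KRAB, 3 had a SCAN domain (a dimerisation domain) without KRAB, 56 had fingers and neither domain, and 4 had no finger of the pattern searched. These 4 were ZNF185, ZNF503, ZNF703 and ZNF839, so the name C2H2 does not rest on these sequences for them. The other 127 held 1365 fingers, with a median over all members of 10 and up to 33 in ZNF462. KRAB genes had a median of 12.5 fingers and the 56 genes with neither domain a median of 8.

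The libraries held 40599380 to 43537923 recovered reads in PBS and 45242993 to 55479940 in IGFBP-7, so every member stood far above the level of 3 fragments, 2.54 to 3.20 normalized counts. Of 10 stellate and mesenchymal markers, 8 were in the deposited table and 7 had a mean of at least 10. DES was under 10, and VIM and LRAT were not in the table. The summed level of the 8 was 105557 to 109037 in PBS and 303697 to 335047 in IGFBP-7. COL1A1 was the largest part, with a mean of 49614 in PBS and 198928 in IGFBP-7. Of 10 markers of other liver cells, 9 were in the table, without TTR. Of these, PECAM1 and CD68 had a mean of at least 10. The sum of the 9 was 2887 to 3002 in PBS and 1524 to 1754 in IGFBP-7. CD68 made up most of that sum and fell, from a mean of 2863 to 1466, while PECAM1 rose from 61.5 to 113. ALB, APOA1, KRT19, EPCAM, CDH5, PTPRC and CD163 were under 10. The part of these shifts in the ZNF values was not tested. LX-2 is a cell line, and in bulk RNA fewer cells in a given state and less RNA per cell cannot be told apart.

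Of the 131 ZNF genes, 43 were higher with IGFBP-7, 25 were lower and 63 did not pass (limma-trend, adjusted p under 0.05). Over all 11872 genes tested, 60.6% passed, 31.3% higher and 29.2% lower, against 51.9% of the ZNF genes. Protein-coding genes that met the same minimum, a mean of at least 500, passed in 84.5% of cases. Their levels were higher than those of the members. A mean of at least 1000 was reached by 4305 of these 5779 genes and by 54 of the 131 members. The median log2 change was 0.11 for the ZNF genes, 0.02 for all genes and 0.15 for protein-coding genes at that level. The groups did not overlap for 77 members, 58.8%, beside 63.5% of all genes and 83.6% of protein-coding genes with a mean of at least 500.

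The changes were mostly small. Of the 68 members that passed, 62 changed by less than 1.5-fold. The 6 at or above it were ZNF608, ZNF618 and ZNF827 among the rises and ZNF219, ZNF438 and ZNF395 among the falls. Of these, ZNF608 and ZNF438 met the level rule through the group in which they were higher. The 6 make up 4.58% of the members, beside 22.8% of all genes and 19.1% of protein-coding genes with a mean of at least 500. The median absolute log2 change was 0.20 for members, 0.31 for protein-coding genes at that level and 0.33 for all genes. The median SE of the members, 0.0878, was above the 0.0695 of those protein-coding genes.

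The split of higher and lower calls depended on the scaling. The deposited normalization left the summed counts of a library at 21287527 to 21682060 in PBS and 23373767 to 24123228 in IGFBP-7. Scaling to the library total moved the median log2 change of all genes by -0.14 and gave 23 higher and 39 lower members. Of the 43 higher members 23 stayed higher and 20 no longer passed, all 25 lower members stayed lower, and 14 others became lower. The members together took 0.663% to 0.684% of the normalized counts in PBS and 0.623% to 0.663% in IGFBP-7.

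**Figure D1:**
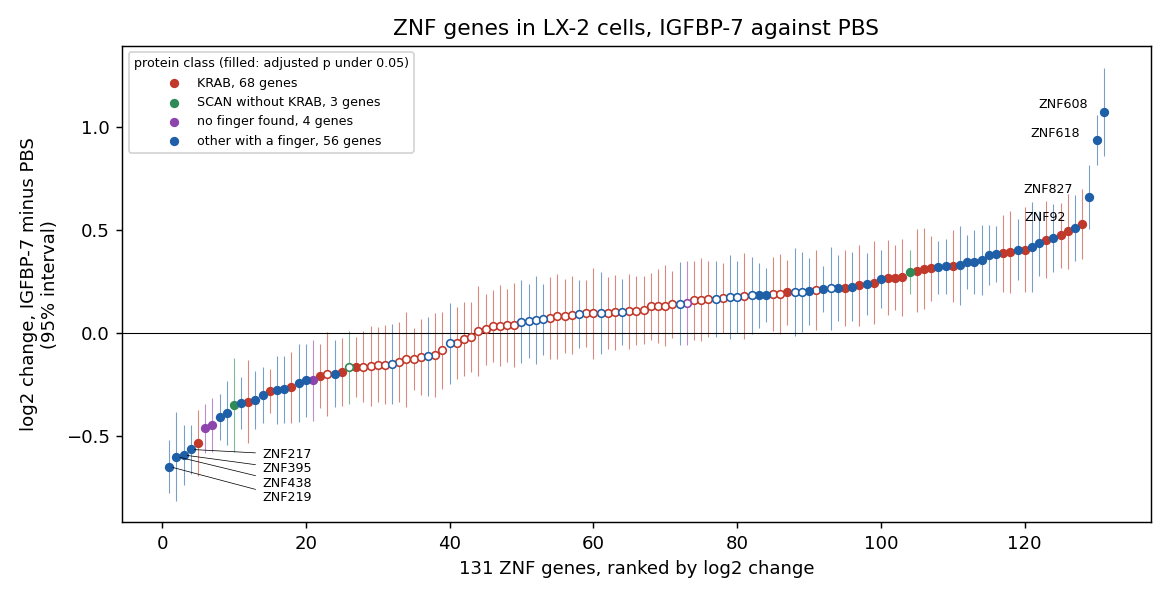
The 131 ZNF genes in order of log2 change (IGFBP-7 minus PBS), with the 95% interval as a vertical line. Colour gives the protein class and filled points passed the test. The 3 largest rises and 4 largest falls are genes without KRAB, and most points between -0.2 and 0.2 are open.

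ZNF608, a large nuclear protein with a single finger in the sequence read, rose most. It measured 313, 342 and 373 normalized counts in PBS and 698, 784 and 682 with IGFBP-7. Every IGFBP-7 library was far above every PBS library. The log2 change was 1.07 ± 0.11 (SE, n = 3 per group; limma adjusted p = 1.76e-12), and it was the 1 member past 2-fold. The PBS mean of ZNF608 was under 500, so it met the level rule through the IGFBP-7 group.

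ZNF618, known to bind the hydroxymethylcytosine reader UHRF2, was next. Its values were 2010, 1913 and 2057 in PBS and 3931, 3811 and 3698 with IGFBP-7. The groups were wide apart and the change was 0.94 ± 0.06 (limma adjusted p = 3.92e-19). ZNF827, which recruits the NuRD complex to telomeres, measured 909, 978 and 910 in PBS and 1546, 1474 and 1402 with IGFBP-7. Its groups did not overlap either, with a change of 0.66 ± 0.08 (limma adjusted p = 2.22e-10).

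The other 7 of the 10 largest rises, ranked among members that passed without overlap, lay between 0.44 and 0.53 on the log2 scale. They were ZNF92, ZNF362, ZNF468, ZNF519, ZNF771, ZNF41 and ZNF286A, of which ZNF92, ZNF468, ZNF519 and ZNF41 have KRAB. ZNF92 measured 772, 985 and 942 in PBS and 1249, 1388 and 1240 with IGFBP-7, a change of 0.53 ± 0.09 (limma adjusted p = 5.18e-07). The PBS libraries of ZNF92 spread more widely than the IGFBP-7 libraries, and the groups did not overlap. Of these 7, ZNF286A and ZNF468 share 38.3% and 8.58% of their 75-base coding windows with another zinc finger gene, so their reads could have been split and their values are uncertain.

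ZNF219, a transcriptional repressor known also as a partner of SOX9 in cartilage, fell most. It measured 2745, 2772 and 2695 in PBS and 1669, 1823 and 1750 with IGFBP-7. The spread within each group was a small part of the gap between them, and the log2 change was -0.65 ± 0.06 (limma adjusted p = 1.31e-12). ZNF438 followed with 594, 564 and 678 in PBS and 415, 412 and 381 with IGFBP-7. The PBS libraries of ZNF438 were the more spread, and its change was -0.60 ± 0.11 (limma adjusted p = 3.35e-06). ZNF438 met the level rule through the PBS group.

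ZNF395, a DNA-binding protein known to be induced by hypoxia, fell from 2316, 2478 and 2651 in PBS to 1658, 1840 and 1455 with IGFBP-7. Its change was -0.59 ± 0.07 (limma adjusted p = 6.16e-10). ZNF217, an oncoprotein that binds the corepressor CtBP, measured 3411, 3306 and 3305 in PBS and 2200, 2344 and 2231 with IGFBP-7. These groups were narrow and well apart, and the change was -0.57 ± 0.06 (limma adjusted p = 1.25e-11).

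Among members that passed without overlap, the other 6 of the 10 largest falls were ZNF33B, ZNF185, ZNF703, ZNF512B, ZNF641 and ZNF512, at -0.53 to -0.34. ZNF33B, with KRAB, measured 1319, 1339 and 1401 in PBS and 873, 1036 and 902 with IGFBP-7, and it shares 5.97% of its windows with another zinc finger gene. ZNF185, an actin-associated LIM protein, measured 3368, 3515 and 3630 in PBS and 2603, 2475 and 2551 with IGFBP-7. ZNF703, a corepressor-binding protein of the NET family, measured 2389, 2297 and 2327 in PBS and 1692, 1756 and 1699 with IGFBP-7. In none of these 3 did the groups overlap.

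**Figure D2:**
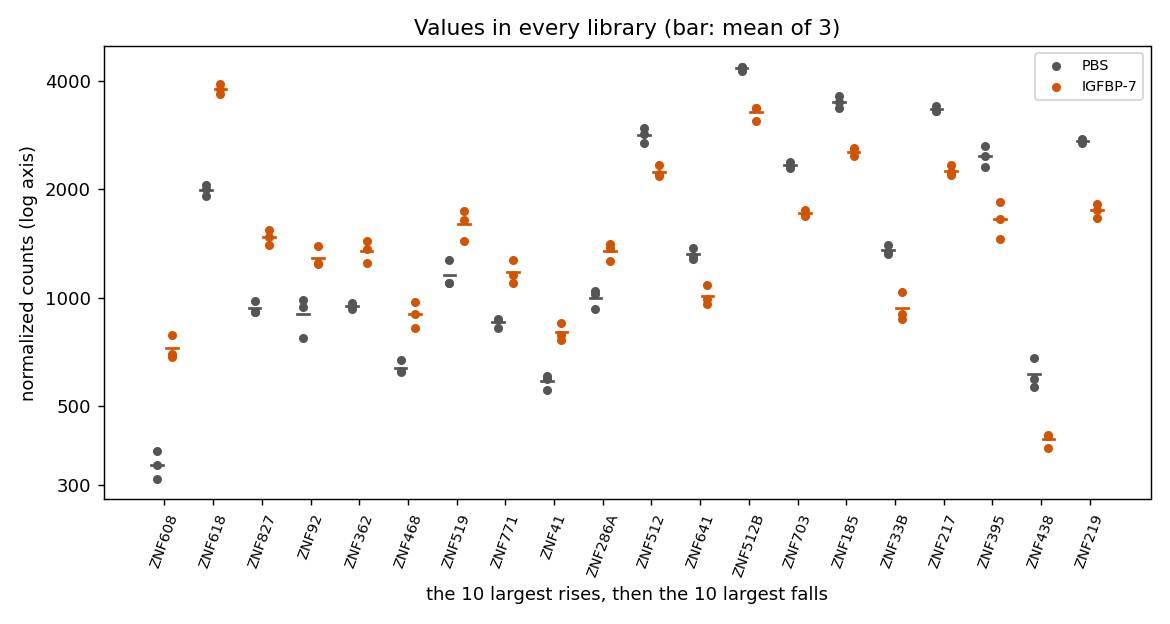
Normalized counts (log axis) of the 10 largest rises and 10 largest falls among the members that passed without overlap, 1 point per library. In every gene shown the 3 IGFBP-7 points lie on 1 side of the 3 PBS points.

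Of 22 ZNF genes listed as known from development or as binding partners of corepressors, 15 were tested. Members among them numbered 10, of which 4 rose, 5 fell and ZNF503 did not pass. At a mean of at least 500, 84.5% of protein-coding genes passed, so a list in which most members pass is near that background. The rises were ZNF608 and ZNF827 above and the related factors ZNF281 and ZNF148. ZNF281, linked to pluripotency and epithelial-mesenchymal transition, measured 1237, 1399 and 1510 in PBS and 1913, 1850 and 1713 with IGFBP-7 (0.40 ± 0.07, limma adjusted p = 6.21e-06). ZNF148 changed less, by 0.18 ± 0.06 (limma adjusted p = 0.0117), and it no longer passed without PBS replicate 1, without IGFBP-7 replicate 2 or under library-total scaling.

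The falls were ZNF219, ZNF395, ZNF217 and ZNF703 above, and ZNF462, a nuclear protein with 33 fingers mutated in a developmental syndrome. ZNF462 measured 1788, 1770 and 1909 in PBS and 1483, 1496 and 1384 with IGFBP-7, without overlap. ZNF503, the close relative of ZNF703, measured 497, 504 and 507 in PBS and 577, 583 and 512 with IGFBP-7. Its change of 0.15 ± 0.10 did not pass (limma adjusted p = 0.22), and an antisense gene in the table makes its reads uncertain.

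Of 14 ZNF genes listed as linked to chromatin, 6 were tested. Among the 5 of them that were members, 4 rose and none fell. Of protein-coding genes with a mean of at least 500, 47.1% were higher and 37.3% lower, or 84.5% in either direction. ZNF644, a partner of the H3K9 methyltransferases G9a and GLP, measured 2365, 2683 and 2326 in PBS and 3141, 3403 and 2837 with IGFBP-7 (0.35 ± 0.07). ZNF24, a SCAN protein with the highest count of the members (not corrected for length), measured 4595, 4948 and 4897 in PBS and 5937, 6155 and 5647 with IGFBP-7 (0.30 ± 0.05). ZNF335, a subunit of histone methyltransferase complexes, and ZNF292 rose by 0.26 ± 0.07 and 0.21 ± 0.06. ZNF335 and ZNF292 no longer passed under library-total scaling. ZNF280D changed by 0.18 ± 0.09 and did not pass (limma adjusted p = 0.0854), with overlapping groups, and it passed at 0.28 without IGFBP-7 replicate 3.

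Of 13 RNA-linked ZNF genes listed, only 1 was tested, the member ZNF830, a splicing-associated protein. It changed by 0.22 ± 0.08 (limma adjusted p = 0.0181) and no longer passed without PBS replicate 1, without IGFBP-7 replicate 1 or under library-total scaling. The smallest changes were those of ZNF140, ZNF891 and ZNF510, at 0.01 ± 0.11, 0.02 ± 0.09 and -0.02 ± 0.08. Their 95% intervals ran from -0.21 to 0.23, -0.16 to 0.19 and -0.19 to 0.15.

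Calls are given by protein class as a description, with no test between classes. Of the 68 KRAB genes 18 were higher, 7 lower and 43 did not pass, with a median log2 change of 0.10 and a range of -0.53 to 0.53. None reached 1.5-fold. Of the 56 others, 24 were higher, 14 lower and 18 missed the threshold, at a median of 0.18. Under library-total scaling the balance turned, with 7 KRAB genes higher and 18 lower, and 15 of the others higher and 16 lower. The 7 KRAB genes that fell were ZNF33B, ZNF45, ZNF655, ZNF83, ZNF84, ZNF841 and ZNF91, and leaving out 1 library gave 4 to 5 lower KRAB genes, with 4 without IGFBP-7 replicate 1 or without PBS replicate 3. ZNF91, known to silence SVA elements, changed by -0.33.

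Level differed between the classes, and the members were therefore also split at a mean of 1000, a split added after the values were seen. From 500 to under 1000, 32.0% of 50 KRAB genes and 30.4% of 23 other genes with fingers passed, beside 61.7% of 1474 protein-coding genes. Their median absolute log2 changes were 0.16, 0.18 and 0.26. At 1000 and above, 9 of 18 KRAB genes and 31 of 33 others (93.9%) passed, beside 92.3% of 4305 protein-coding genes. At 1000 and above the median absolute changes were 0.15, 0.34 and 0.32. The median SE in the upper band was 0.0802 for KRAB genes, 0.0742 for the others and 0.0632 for protein-coding genes.

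**Figure D3:**
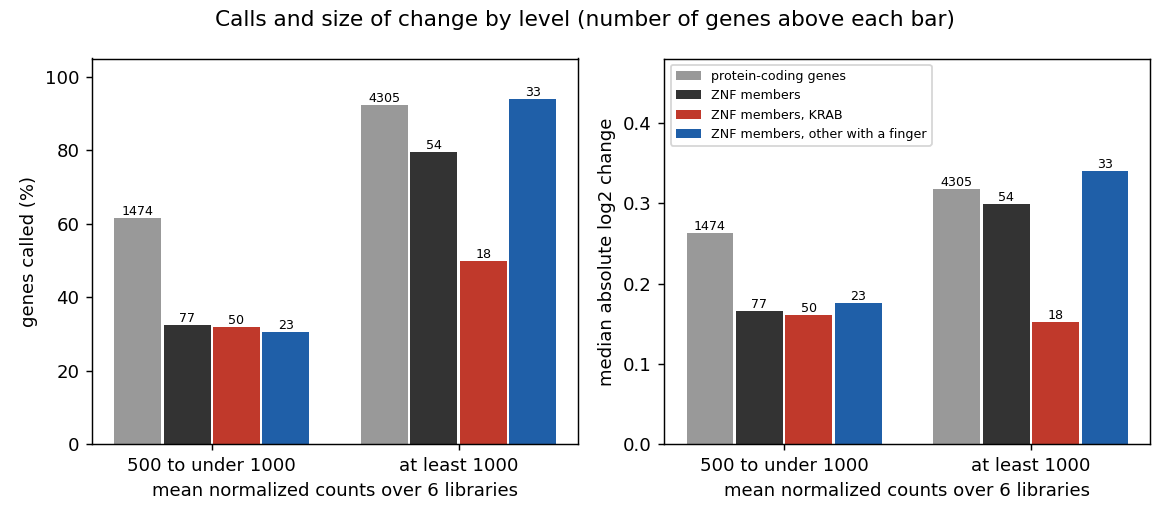
Share of genes that passed the test (left, percent) and median absolute log2 change (right), by band of mean normalized counts, for protein-coding genes, all ZNF members, KRAB members and other members with a finger. At 1000 and above, the KRAB bar stands for 9 of 18 genes and the bar of the other members for 31 of 33.

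Many ZNF genes arose by tandem duplication and stand in clusters. On chromosome 19, 43 members, 32 of them with KRAB, gave 10 higher and 6 lower. That is 37.2% that passed, against 59.1% of the 88 members elsewhere. Of all genes tested 60.6% passed, and of protein-coding genes with a mean of at least 500, 84.5%. The median SE was 0.0962 for members on chromosome 19 and 0.0839 for those elsewhere. Runs were chained in RefSeq order over all ZNF genes, members or not. At most 1 other protein-coding gene lay between a ZNF gene and the next. Members of a run can therefore be separated by ZNF genes that are not members. In the 18 runs with more than 1 member stood 59 members, and 14 of them were higher and 7 lower, or 35.6%. Among the 72 members without another member in their run, 29 were higher and 18 lower, or 65.3%. The part of protein class or level in the shares by chromosome and by run was not tested. ZNF212, ZNF398 and ZNF783 on chromosome 7 were all higher, at 0.20 to 0.31, as were ZNF48 and ZNF771 on chromosome 16, at 0.33 and 0.46. Under library-total scaling ZNF212, ZNF398, ZNF783 and ZNF48 no longer passed, at 0.06, 0.06, 0.17 and 0.19. ZNF771 still passed, at 0.32. ZNF117, ZNF138, ZNF680 and ZNF736, also on chromosome 7, gave 0.03 to 0.18 and none passed. The run with 8 members around ZNF468 on chromosome 19 held 3 higher and 2 lower members, at -0.26 to 0.49.

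Related genes can share reads. Over 5% of the 75-base coding windows of 10 members occur in another zinc finger gene: ZNF28, ZNF286A, ZNF320, ZNF324, ZNF33B, ZNF468, ZNF525, ZNF587, ZNF765 and ZNF814, with the highest share, 55.5%, in ZNF587. For 9 members, ZNF133, ZNF197, ZNF22, ZNF45, ZNF503, ZNF528, ZNF652, ZNF710 and ZNF775, the table also lists an antisense gene. The values of both sets are uncertain, since how the counting treated shared or antisense reads is not known here.

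Promoters, 250 bases before to 50 after the start in RefSeq GRCh38.p14, were matched for 118 members. For 79 of these the last 50 bases lie in a GENCODE transcript of the gene, and the starts of the others were not matched in this way. CAGACA, a SMAD-type motif, stood on either strand in 27, or 22.9%, against 14.5% of 15843 protein-coding promoters. ACTACAA, part of the ZNF143 motif, stood in 5.93% against 3.14%, and the GC box GGGCGG in 61.9% against 58.5%. The 15843 promoters were not limited to genes expressed in LX-2 cells. Of the 27 with CAGACA, 10 were higher and 7 lower, and of the 91 without it, 30 were higher and 12 lower. Over all genes tested, 31.3% were higher and 29.2% lower. Among protein-coding genes with a mean of at least 500, these shares were 47.1% and 37.3%. A link between the motif and the changes was not tested. A match describes letters and not a bound site.

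Genes that work with ZNF proteins were partly represented. Of 23 KRAB cofactor and heterochromatin genes listed, 8 were tested, and 6 were higher and 2 lower. All 8 had a mean of at least 500, where 84.5% of protein-coding genes passed. CBX3, the HP1 gamma protein, changed by 0.46 ± 0.05, HDAC2 by 0.36 ± 0.05 and the DNA methyltransferase DNMT3A by 0.36 ± 0.07. The maintenance methyltransferase DNMT1 changed by -0.30 ± 0.04. DNMT3B, at -0.21 ± 0.09 (limma adjusted p = 0.0471), lost its call under several alternatives. TRIM28 and SETDB1 were not analysed here.

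Of 22 partners of ZNF proteins without KRAB, 7 were tested, 4 higher and 3 lower, against the same background of 84.5%. TLE3, a Groucho-type corepressor, rose by 0.93 ± 0.07 and the histone demethylase KDM1A by 0.37 ± 0.05. TLE4, of the same family as TLE3, changed by -0.63 ± 0.06, and the histone-binding protein RBBP7 by -0.28 ± 0.04. TLE1, at -0.15 ± 0.07, lost its call when any of 4 libraries was left out and without the filter on low values.

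Of the 258 ZNF genes under the level rule, 20 were higher and 19 lower, or 15.1%, beside 39.7% of 4073 protein-coding genes at that level. Leaving out IGFBP-7 replicate 2 gave 10 higher, PBS replicate 3 gave 12 higher and PBS replicate 2 gave 10 lower. Library-total scaling gave 7 higher and 49 lower. ZNF469, linked to corneal collagen structure, measured 163, 159 and 164 in PBS and 886, 553 and 709 with IGFBP-7, a change of 2.11 ± 0.13. ZNF365, a centrosomal protein, measured 140, 178 and 182 in PBS and 543, 650 and 601 with IGFBP-7, a change of 1.84 ± 0.13. Both log2 changes exceeded that of ZNF608. The third largest rise, of ZNF704 (0.87 ± 0.34), and the falls of ZNF491 (-1.12) and ZNF727 (-1.24) lost their calls when single libraries were left out, while ZNF467 (-1.47 ± 0.36) kept its call in each alternative run.

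ZKSCAN, ZSCAN, ZBTB and ZFP genes, whose products also carry C2H2 fingers, gave 19 higher and 9 lower of 55 tested. Beside 60.6% of all genes tested, 50.9% of the 55 passed. Library-total scaling gave 9 higher and 11 lower of them. Their largest rises were ZFP69 (0.82), ZFP69B (0.63) and ZBTB2 (0.49). Their largest falls were ZSCAN16 (-0.71), ZFP3 (-0.67) and ZSCAN18 (-0.54), of which ZFP3 lost its call in several alternatives.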

How the data were processed

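The authors deposited normalized counts, a signal per gene and library that was not log-transformed. Per the submitters' processing notes, the tools included featureCounts, Subread, STAR and DESeq2, with no version or role. Not given in the sources used here are the genome build, the annotation and how strand was handled in counting. Values in a library were whole multiples of 1 step (within 0.01 of a step, 100% of values), so reads could be recovered, 2 per fragment. Chi-square per degree of freedom between libraries of a group was 5.26 to 7.23, so all 6 were counted. Intervals on log2 changes were built from the limma SE, with 49.1 degrees of freedom. This SE draws the spread of each gene toward that of genes at a similar level. The intervals and p-values therefore reflect spread among libraries that is largely pooled over genes and may be technical. The 3-fragment floor covers counting error only.

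Genes with a mean of at least 10 were tested with limma-trend (limma 3.58.1, R 4.3.3) for IGFBP-7 minus PBS, on the log2 of the normalized count plus 1, two-sided, with Benjamini-Hochberg adjustment at 0.05 over all 11872 genes. Fold changes are on this scale, which understates low genes. edgeR 4.0.16 and DESeq2 1.42.0 on recovered reads were alternatives, with other pseudocounts, filters and scalings, each library left out and a replicate block. The script was tested on simulated data.

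The planned protein table was not used. Domains came from GENCODE release 29 coding sequences translated by script: a finger is 2 cysteines 2 to 4 residues apart, 12 residues, then 2 histidines 3 to 5 apart. The tolerant KRAB match and the split at 1000 were added after the data were seen. Members and lists were chosen with earlier results of these data known. Named members are the 10 largest rises and falls that passed without overlap, the role lists, those next to the level rule and the 3 smallest changes. For the other lists, the largest changes that pass are named, except 1 that is not reported here.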

Additional observations from a re-analysis of the deposited data

How the results depend on the processing

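Of the alternatives, scaling to the library total changed most. It gave 2435 higher genes over the whole table, 23 higher and 39 lower members, 7 higher and 18 lower KRAB genes, 15 higher genes with fingers and neither domain, 7 higher and 49 lower ZNF genes under the level rule, and 9 higher genes with other zinc finger symbols. A level rule of 1000 gave 27 higher and 16 lower members by its construction, and the strict KRAB pattern 4 lower KRAB genes. With no filter on low values, 13 ZNF genes under the level rule were higher and 1 cofactor gene was lower. Leaving out 1 library gave 38 to 45 higher and 20 to 21 lower members, 4 to 5 lower KRAB genes, 10 to 21 higher and 10 to 22 lower ZNF genes under the level rule, and 1 to 2 lower cofactor genes. The lowest of these came without IGFBP-7 replicate 2 (10 higher) and without PBS replicate 2 (10 lower) under the level rule, and without IGFBP-7 replicate 1 or PBS replicate 3 (4 lower) for KRAB. The cause was not tested.

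For the 56 genes named for their change, 781 alternative values kept direction and side of the threshold, 41 lost the call, 1 gained it and 12 turned direction. The direction of the 3 smallest changes was not stable. ZNF140 was -0.0184 in DESeq2, -0.0209 in edgeR, -0.13 under library-total scaling and -0.124 to 0.0834 with 1 library left out. ZNF891 was -0.00613 in DESeq2, -0.00848 in edgeR, -0.12 under library-total scaling and -0.0673 to 0.0632 with 1 left out. ZNF510 ranged from -0.0884 to 0.0813 with 1 left out.

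Same-numbered libraries deviated together with correlations of -0.0491 to 0.0117, so the numbers were not taken as pairs. With the replicate block, 43 members were higher and 23 lower, and 1 cofactor gene was lower.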
